A study of Homo sapiens with 8 samples.

Results

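The DNA repair genes described here were a list of 50 genes of homologous recombination, the Fanconi anaemia pathway, mismatch repair, excision repair, direct reversal, end joining and damage signalling. A gene was measured when a probe set, the group of short probes that reports 1 transcript, was annotated to its symbol and to no other, and the probe set with the highest mean over the 8 arrays stood for the gene. By that rule 46 of the 50 members were measured, among 19775 genes in all, through 93 probe sets. For 23 members only 1 probe set was annotated. BRCA2, FANCA and FANCD2 were named by no probe set of the annotation used and were not analysed here, nor was PMS2, whose probe sets were shared with PMS2CL.

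RNA from human colon cancer cells was hybridised to 8 Affymetrix arrays, 2 for each of 4 groups. HT29 and SW480 are widely used cell lines that were each started from a colorectal adenocarcinoma. Cells of 3 groups, parental HT29 and the SW480 pair, were kept in DMEM with 10% FBS. HT29 cells labelled as 1st spheres had a DMEM-F12 medium, with no serum named, holding EGF and bFGF, both at 10 ng/ml, and N2 Plus supplement. The SW480 groups were 2 stable lines, a vector control and a line labelled as expressing Snail, a transcription factor encoded by SNAI1. The labels do not say whether each was 1 clone. Sphere form and its medium came together in 1 group and cannot be told apart. Whether partner arrays held RNA of separate cultures is not stated in the labels, so the error behind each p-value is that between 2 arrays and may be technical.

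Values are log2 expression values, and array medians lay between 5.50 and 5.61. SNAI1 read 6.36 and 6.34 on the vector arrays and 6.32 and 6.38 on the arrays labelled Snail, so it was no higher there, and every direction given for that group rests on its label. Partner arrays correlated at 0.991 in the parental pair and at 0.995 in the other 3 pairs, and no member was 2-fold or more apart between partner arrays. The parental pair had 200 genes at least 2-fold apart, against 10 to 19 in the other pairs. Of 10 colon epithelium markers, 8 to 10 lay above the array medians in each group. In spheres 4 of them were higher and 1 lower, with CDH17 higher by 4.74 and KRT20 by 1.59 on the log2 scale, and after centring each gene the list averaged 0.43 and 0.58 in the parental pair and 1.13 in both sphere arrays. In SW480 cells CDH17 and KRT20 lay below the array medians, between 4.11 and 4.79. On the arrays labelled Snail 3 of the 10 were higher than on the vector arrays and 1 was lower. These were CDH1, the E-cadherin gene, with a change of 0.76 ± 0.17, KRT8 with 0.57 ± 0.12, KRT19 with 0.49 ± 0.12 and VIL1 with -1.06 ± 0.17. Over all genes 8.91% were called higher and 7.34% lower there. The 5 fibroblast markers averaged -0.18 and -0.11 in the parental pair and 0.85 and 0.73 in the sphere pair after centring each gene, with the matrix gene LUM higher by 3.78 on the log2 scale in spheres, while the other 4 did not pass. The part of either marker list in the sphere results was not tested.

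Cells repair DNA by several routes. Homologous recombination copies the sister chromatid to mend a double strand break, the Fanconi pathway opens crosslinks between strands, and end joining reseals break ends directly. Mismatch repair removes replication errors, base excision repair removes single damaged bases, and nucleotide excision repair cuts out bulky lesions such as those left by ultraviolet light. Many genes of recombination, the Fanconi pathway and mismatch repair are transcribed mostly in cells about to replicate their DNA, whereas several nucleotide excision genes are not known for such a rhythm. Loss of mismatch repair and silencing of MGMT are well known in colon cancer.

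Most of the repair genes were lower in HT29 spheres than in parental HT29 cells. By limma (Benjamini-Hochberg adjustment across 19775 genes, threshold 0.05), 36 of the 46 measured members fell, 1 rose and 9 did not pass. Across all genes, 19.0% were called lower and 12.4% higher in this comparison. The median change of the members was -1.02 on the log2 scale, against 0.04 over all genes, and 23 members fell by at least 2-fold. Both sphere arrays lay below all 6 other arrays for 34 of the 46 members, a pattern found in 15.3% of all genes. These were bulk RNA samples, in which fewer cells of a kind and less RNA per cell cannot be told apart.

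**Figure D1:**
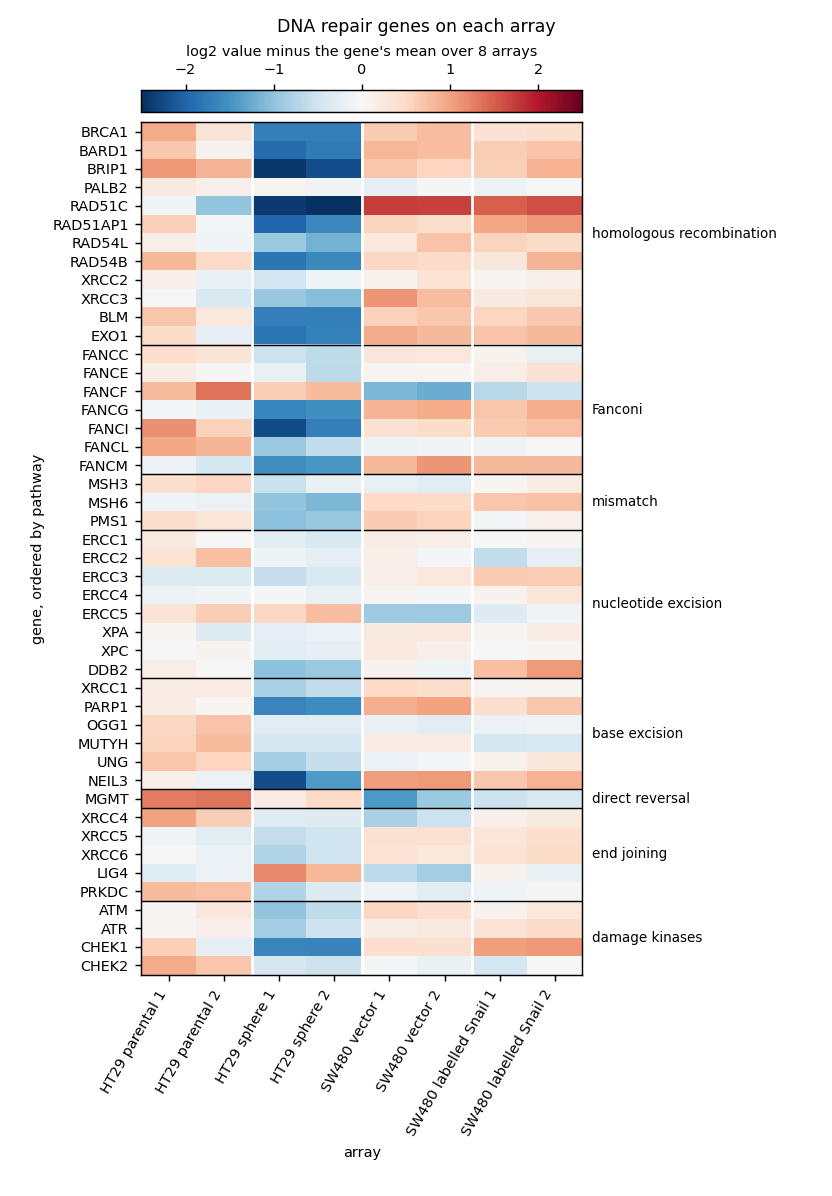
Log2 value of each of the 46 measured repair genes minus that gene's mean over the 8 arrays, with 1 column per array and genes ordered by pathway. The sphere columns are blue for most recombination, Fanconi, mismatch and base excision genes, pale for most nucleotide excision genes, and red for LIG4, FANCF, ERCC5 and MGMT, of which LIG4 alone rose against parental cells.

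Genes of homologous recombination were lowered most: 10 of 12 measured members fell, with a median change of -2.14. BRIP1, a helicase that binds BRCA1 and also acts in the Fanconi pathway, read 7.98 and 7.75 in parental cells, 4.49 and 4.68 in spheres, 7.60 and 7.44 in vector cells and 7.50 and 7.77 on the arrays labelled Snail. The sphere values stood apart from the other 6 and lay below the median of their own arrays. BRIP1 fell by 3.28 ± 0.15 on the log2 scale (± SE, 2 arrays a group, limma adjusted p 4.8e-07), a 9.74-fold difference. Its other probe set had a smaller change of -2.17 ± 0.17. No measure of detection was used, so values this low do not say whether a transcript was present.

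BRCA1, the breast and ovarian cancer gene whose product directs break ends into recombination, read 9.39 and 8.78 in parental cells, 6.76 and 6.75 in spheres, 9.10 and 9.23 in vector cells and 8.82 and 8.87 on the arrays labelled Snail. Only the spheres stood apart, and the change was -2.33 ± 0.18 (limma adjusted p 8.9e-06). The other BRCA1 probe set had a smaller change of -1.24 ± 0.20 (limma over all probe sets, adjusted p 0.0010). BARD1, the partner that forms a ubiquitin ligase with BRCA1, fell by 2.22 ± 0.18. BLM, the Bloom syndrome helicase that resolves recombination intermediates, read 8.21 and 7.78 in parental cells and 5.80 and 5.81 in spheres. Its change was -2.20 ± 0.15 (limma adjusted p 4.8e-06), while the 4 SW480 arrays lay between 8.06 and 8.19.

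RAD54B, a motor protein of strand exchange, fell by 2.36 ± 0.19 and its relative RAD54L by 1.10 ± 0.17. RAD51AP1, which helps strand pairing, fell by 2.08 ± 0.20, and EXO1, the nuclease that trims break ends and also serves mismatch repair, by 1.89 ± 0.19. RAD51C, a paralog of the strand exchange recombinase, read 8.80 and 7.89 in parental cells and 6.47 and 5.78 in spheres, with 0.91 between the parental arrays, the widest gap of any member in that pair. It fell by 2.22 ± 0.28 (limma adjusted p 0.00019). XRCC3, another paralog, fell by 0.81 ± 0.16. The exceptions were PALB2, the bridge between BRCA1 and BRCA2, with a change of -0.17 ± 0.13, and the paralog XRCC2, with -0.26 ± 0.16, neither of which passed the threshold (limma adjusted p 0.36 and 0.27).

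In the Fanconi group 6 of 7 measured members fell, with a median change of -1.22. FANCI, which forms with FANCD2 the clamp at the centre of the pathway, read 9.89 and 9.34 in parental cells, 6.52 and 7.05 in spheres, 9.13 and 9.22 in vector cells and 9.41 and 9.49 on the arrays labelled Snail. The sphere arrays were again the only low ones, and the change was -2.83 ± 0.21 (limma adjusted p 6.2e-06), a 7.11-fold difference. FANCL, the ubiquitin ligase that marks that clamp, fell by 1.68 ± 0.14. Among members of the core complex around it, FANCG fell by 1.49 ± 0.13, FANCC by 0.95 ± 0.13 and FANCE by 0.53 ± 0.17.

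FANCM, the motor that brings the core complex to DNA, fell by 1.22 ± 0.15, to 4.38 and 4.45, below the array medians. FANCF, an adaptor of the same complex, read 9.13 and 9.69 in parental cells and 8.96 and 9.13 in spheres, so the groups met, and its change of -0.37 ± 0.18 did not pass (limma adjusted p 0.16). The 7 members thus ranged from a 7.11-fold fall to a 1.29-fold difference that did not pass.

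All 3 measured mismatch repair members fell, with a median change of -0.93. MSH6, which recognises single mismatches, read 9.95 and 9.90 in parental cells and 9.06 and 8.92 in spheres, a change of -0.93 ± 0.12 (limma adjusted p 0.00021). Its SW480 values, between 10.51 and 10.78, were higher than both HT29 groups. MSH3, which recognises small loops, fell by 0.83 ± 0.15. PMS1, a MutL homolog, read 8.80 and 8.67 in parental cells and 7.33 and 7.41 in spheres and fell by 1.37 ± 0.13 (limma adjusted p 2.6e-05).

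All 6 members of base excision repair fell, with a median change of -1.22. PARP1, the enzyme that senses single strand breaks, read 9.54 and 9.41 in parental cells, 7.72 and 7.79 in spheres, 10.28 and 10.36 in vector cells and 9.78 and 10.03 on the arrays labelled Snail. Partner arrays lay close together and the groups did not meet, and the sphere change was -1.72 ± 0.13 (limma adjusted p 9.0e-06). XRCC1, the scaffold recruited after PARP1, fell by 0.92 ± 0.12.

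The other 4 members of that group are glycosylases, which cut out a damaged base. NEIL3, which acts on oxidised bases and crosslinks in dividing cells, read 7.59 and 7.32 in parental cells and 5.24 and 6.04 in spheres and fell by 1.82 ± 0.22 (limma adjusted p 0.00015). UNG, which removes uracil, fell by 1.32 ± 0.14. OGG1, which removes oxidised guanine, fell by 0.89 ± 0.12, and MUTYH, which removes the adenine opposite it and is the gene of a recessive colon polyposis, by 1.12 ± 0.13.

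Nucleotide excision repair was the pathway with the smallest median change, -0.22, and 3 of its 8 members fell. DDB2, which recognises ultraviolet lesions in chromatin, read 8.07 and 7.89 in parental cells and 6.88 and 6.97 in spheres and fell by 1.05 ± 0.15 (limma adjusted p 0.00038). ERCC2, a helicase of the TFIIH complex, fell by 0.72 ± 0.17 and ERCC1, part of the nuclease that cuts 5′ of the lesion, by 0.45 ± 0.13. The remaining 5 did not pass: the differences were -0.29 ± 0.12 for XPC, the lesion sensor, -0.15 ± 0.13 for ERCC3, the other TFIIH helicase, and -0.05 ± 0.14 for XPA, which verifies the lesion. For ERCC5, the nuclease on the 3′ side, the difference was 0.17 ± 0.16, and ERCC4, the partner of ERCC1, read 6.56 and 6.64 in parental cells and 6.67 and 6.52 in spheres.

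MGMT, the enzyme that removes alkyl groups from guanine in 1 step and limits the effect of temozolomide, was the only measured direct reversal member. It read 8.41 and 8.46 in parental cells, 7.34 and 7.60 in spheres, 5.70 and 6.20 in vector cells and 6.59 and 6.74 on the arrays labelled Snail. The 4 groups did not meet. The sphere change was -0.97 ± 0.17 (limma adjusted p 0.0018).

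End joining held the only member that rose in spheres. LIG4, the ligase that seals the break, read 7.34 and 7.49 in parental cells and 8.83 and 8.46 in spheres, a change of 1.23 ± 0.16 or 2.34-fold (limma adjusted p 0.00023). Its direct partner XRCC4 went the other way, from 8.50 and 8.10 to 7.18 and 7.16, a change of -1.13 ± 0.16 (limma adjusted p 0.00040). The 2 genes encode parts of 1 complex, and the arrays of the groups did not overlap for either.

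PRKDC, the catalytic kinase subunit that gathers at broken ends, read 10.56 and 10.50 in parental cells and 9.02 and 9.44 in spheres and fell by 1.30 ± 0.16 (limma adjusted p 0.00013). Of the Ku subunits that first hold the ends, XRCC6 fell by 0.55 ± 0.14, while XRCC5 had a difference of -0.35 ± 0.13 and did not pass (limma adjusted p 0.059). Over the 5 end joining members the median change was -0.55, with 3 lower and 1 higher.

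All 4 damage kinases fell, with a median change of -1.14. CHEK1, the checkpoint kinase of replication stress, read 8.71 and 7.88 in parental cells, 6.46 and 6.44 in spheres, 8.53 and 8.54 in vector cells and 9.16 and 9.19 on the arrays labelled Snail. The parental arrays lay apart from each other, yet both above the spheres, and the change was -1.85 ± 0.22 (limma adjusted p 0.00012). CHEK2, the checkpoint kinase of double strand breaks, fell by 1.29 ± 0.16. Of the apical kinases, ATM fell by 0.98 ± 0.15 and ATR by 0.77 ± 0.14.

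**Figure D2:**
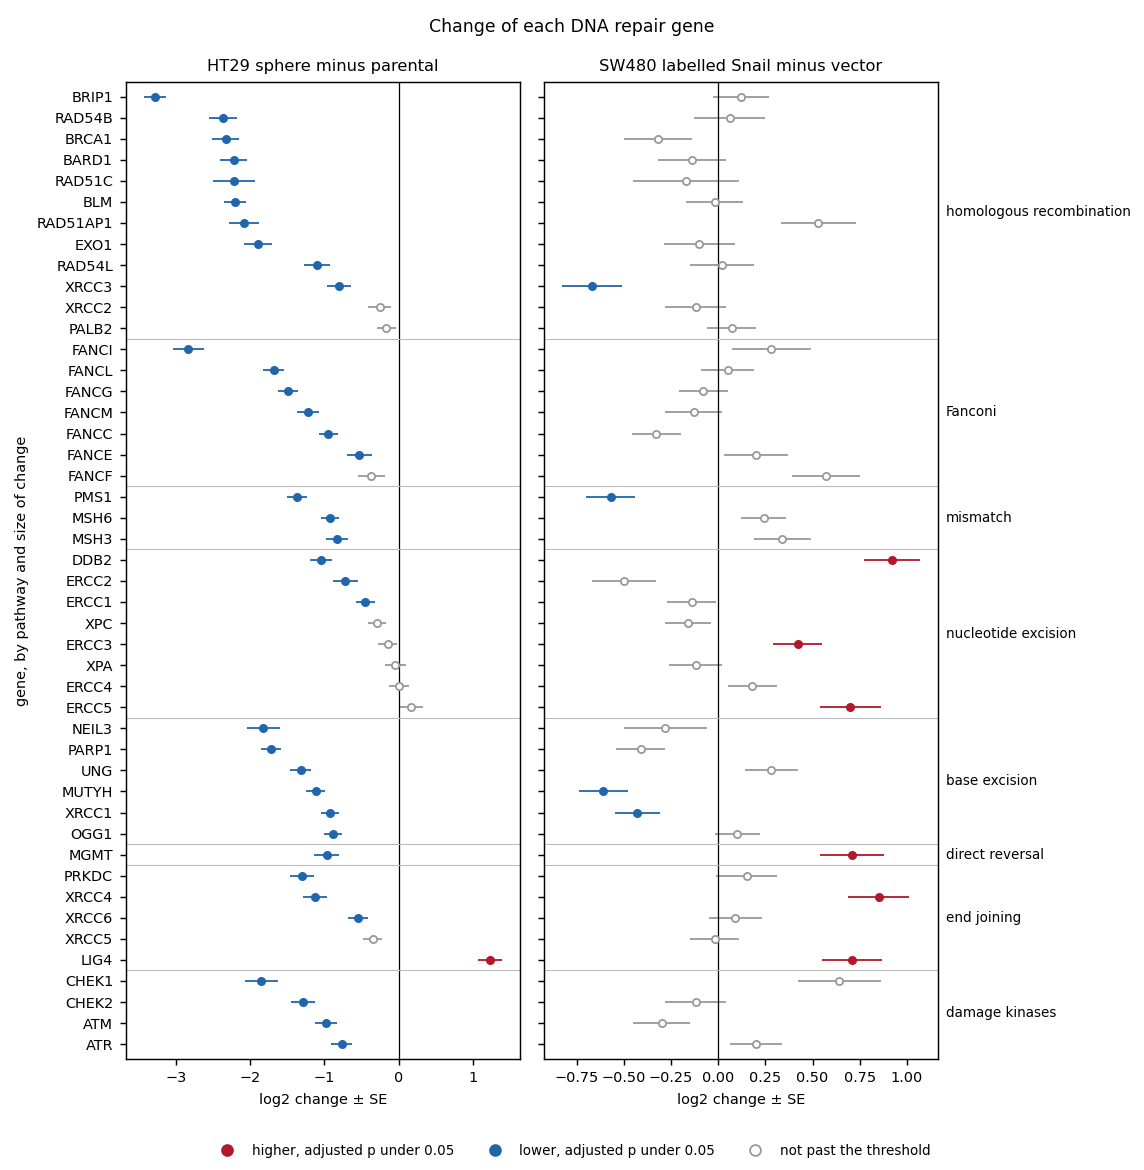
Log2 change ± SE (limma) of each measured repair gene in HT29 spheres against parental cells (left) and in SW480 arrays labelled Snail against vector arrays (right), by pathway, with axes of different range. On the left 36 filled points lie below 0 and only LIG4 above, and on the right 6 are above 0 and 4 below.

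Members known for transcription around S phase and the remaining members were also counted apart. All 12 measured members of the S phase list fell, with a median of -1.98, and 24 of the 34 others fell, with a median of -0.86. The difference between these medians was not tested. Among replication genes that are not repair members, 17 of 17 fell, with a median of -1.86. TYMS, the thymidylate synthase, had a change of -2.63 ± 0.17 and the licensing factor CDT1 one of -1.89 ± 0.12. Mitotic genes fell too, 15 of 15 with a median of -1.50, and among these the kinase gene AURKB had a change of -2.50 ± 0.17 and the topoisomerase gene TOP2A one of -2.24 ± 0.13. The part of proliferation in the repair gene results was not tested.

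The parental arrays were not alike in these genes. The S phase members averaged 0.59 on parental array 1 and 0.15 on parental array 2 after centring each gene on its mean, against -1.70 and -1.53 on the sphere arrays. All 12 were higher on parental array 1, and so were all 17 replication genes, which averaged 0.41 and -0.11. Of the 34 other members 21 were higher on that array, and of all 19775 genes 10341 were. In the S phase and replication lists the sphere arrays lay lower than both parental arrays. With either parental array left out 35 members fell and 1 rose. The spike-in control BioC (3′ probe set) also set the parental arrays apart, at 8.35 and 8.43 there and 9.59 to 10.13 elsewhere. The spike-in controls BioB (middle probe set) and CreX (3′ probe set) did not. BioB read 8.66 and 8.75 there and 8.49 to 9.2 elsewhere, and CreX 13.35 and 13.46 there and 13.02 to 13.55 elsewhere. On the sphere arrays BioB was above both parental arrays, at 9.06 and 9.2. The part of these spike-in differences in the results was not tested.

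**Figure D3:**
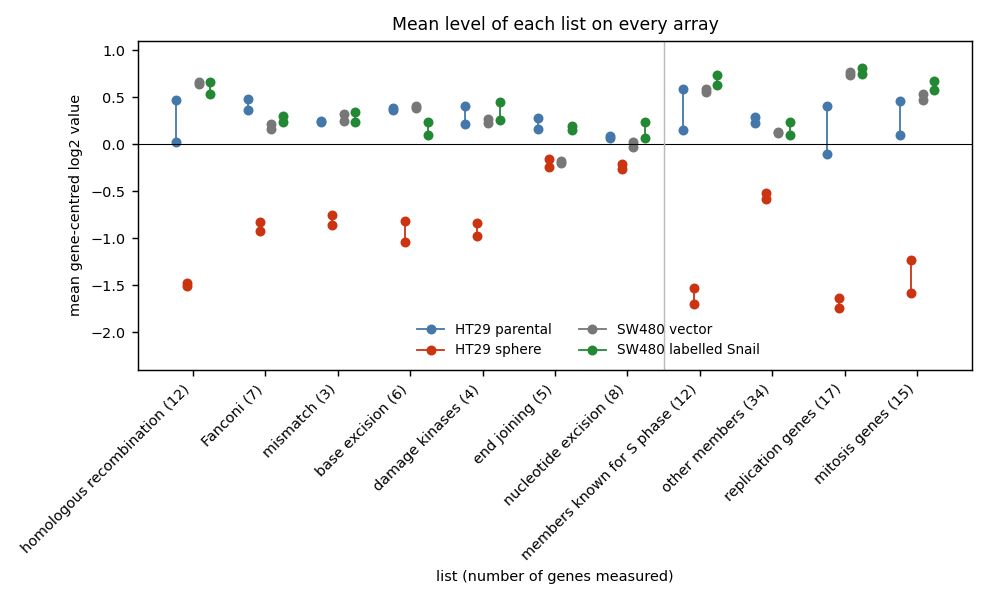
Mean gene-centred log2 value of each list on every array, with a line joining the 2 arrays of a group and the number of genes measured in brackets. The sphere arrays lie at -1.51 and -1.48 for homologous recombination and between -0.26 and -0.16 for nucleotide excision and end joining, and the parental arrays lie apart in the replication, homologous recombination and S phase lists.

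Repair genes outside the 50 were counted from lists of the same pathways. Of 69 measured on the other repair lists, 43 fell and 2 rose in spheres, with a median of -0.53. Over all genes 19.0% fell and 12.4% rose. MND1, a meiotic recombination factor, fell by 3.09 ± 0.27 and RMI2, a partner of the BLM helicase, by 2.91 ± 0.22. UBE2T, the conjugating enzyme that works with FANCL, fell by 1.78 ± 0.17, and USP1, which removes the mark the 2 place, fell by 1.20 ± 0.16. MDC1, which spreads the mark of a break along chromatin, fell by 1.64 ± 0.14, and POLQ, the polymerase of microhomology end joining, by 1.59 ± 0.13. NTHL1, a glycosylase for oxidised pyrimidines, fell by 1.37 ± 0.14 and LIG1, the replicative ligase, by 1.19 ± 0.12. The replication fork factor TIMELESS fell by 1.66 ± 0.14 and TOPBP1, an activator of ATR, by 1.01 ± 0.14. Of the lesion bypass genes, POLK, a polymerase, fell by 1.03 ± 0.20 and MAD2L2 by 0.77 ± 0.13. TDG, a glycosylase for mismatched thymine, was 1 of the 2 that rose, from 9.65 and 9.06 to 10.21 and 10.30, a change of 0.91 ± 0.18 (limma adjusted p 0.0036), and ERCC6 was the other, named after its value was seen.

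Further probe sets of the same genes gave a check within the arrays. Fitted over all probe sets, 59 of the 93 probe sets of members fell in spheres and 2 rose, both of them for LIG4. Over all probe sets of the arrays 13.6% were called lower and 9.56% higher in that fit. Of the 23 members with several probe sets, 15 had at least 2 called the same way and none had probe sets called in opposite directions. For ATM, 3 probe sets fell and 3 did not pass, so its fall rests on those 3.

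The 250 bases upstream of a transcription start are shown for 5 members that span the range of changes: BRIP1 and BLM with large falls, FANCC with a moderate one, DDB2, which fell in spheres and rose in the arrays labelled Snail, and LIG4, which rose in both. They come from RefSeq, build GRCh38.p14, and are the first window listed for each gene: BRIP1 at chr17:61863529-61863778 (minus strand), BLM at chr15:90717096-90717345 (plus), FANCC at chr9:95317710-95317959 (minus), DDB2 at chr11:47214204-47214453 (plus) and LIG4 at chr13:108218350-108218599 (minus). Each is written 5′ to 3′ on the gene's strand, and capitals mark a match on either strand to the CCAAT box (CCAAT), the CHR element (TTTGAA or TTCGAA) or an E2F site (TTTCCCGC, TTTCGCGC, TTTGCCGC or TTTGGCGC). No base of these windows lay in more than 1 match.
BRIP1: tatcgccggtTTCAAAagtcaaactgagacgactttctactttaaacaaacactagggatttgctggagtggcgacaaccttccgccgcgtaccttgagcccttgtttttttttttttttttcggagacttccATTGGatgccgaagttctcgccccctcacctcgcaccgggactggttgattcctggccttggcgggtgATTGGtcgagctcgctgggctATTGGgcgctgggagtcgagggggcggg
BLM: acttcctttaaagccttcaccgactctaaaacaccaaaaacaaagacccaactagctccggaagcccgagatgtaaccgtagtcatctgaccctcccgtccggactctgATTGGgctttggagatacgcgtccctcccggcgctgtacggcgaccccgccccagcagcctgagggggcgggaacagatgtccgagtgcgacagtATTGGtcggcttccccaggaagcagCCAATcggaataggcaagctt
FANCC: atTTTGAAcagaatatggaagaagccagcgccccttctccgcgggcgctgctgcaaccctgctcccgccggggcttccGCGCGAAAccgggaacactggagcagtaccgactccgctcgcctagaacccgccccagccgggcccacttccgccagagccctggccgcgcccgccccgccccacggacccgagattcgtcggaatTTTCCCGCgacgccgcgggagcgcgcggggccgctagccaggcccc
DDB2: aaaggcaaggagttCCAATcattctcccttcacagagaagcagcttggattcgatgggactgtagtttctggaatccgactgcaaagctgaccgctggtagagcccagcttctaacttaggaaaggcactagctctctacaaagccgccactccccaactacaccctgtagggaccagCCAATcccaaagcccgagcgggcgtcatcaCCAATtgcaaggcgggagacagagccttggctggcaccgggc
LIG4: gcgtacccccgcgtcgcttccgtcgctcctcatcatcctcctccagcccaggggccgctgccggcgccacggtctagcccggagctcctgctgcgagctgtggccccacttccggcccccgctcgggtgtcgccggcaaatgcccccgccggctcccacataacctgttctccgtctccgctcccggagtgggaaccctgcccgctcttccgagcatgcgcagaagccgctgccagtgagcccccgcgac

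The BRIP1 window held 3 CCAAT boxes, at 117, 49 and 28 bases before the start, and a CHR match at 240. BLM held 3 CCAAT boxes, at 141, 46 and 21 bases before the start, and DDB2 also 3, at 236, 72 and 42. FANCC held E2F matches at 172 and 46 bases and a CHR match at 248, and the LIG4 window shown held none of these letters. Of the 5 LIG4 windows listed, 2 held a CCAAT box, as did 1 of the 2 DDB2 windows, so what a gene shows depends on the window taken. A match describes the letters only and is no evidence of a bound factor.

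Promoter windows were found for 42 of the 46 measured members, 63 windows in all. A CCAAT box was present in 47.6% of them, against 32.0% of 35116 windows of all genes, an E2F match in 6.35% against 2.79%, and a CHR match in 12.7% against 14.3%. By gene, 21 of 33 members that fell in spheres and 3 of 9 that did not fall had a CCAAT box in at least 1 window. A CHR match was found for 8 of the 33 and 0 of the 9. Of all 27305 genes with windows, 10102 had a CCAAT box and 4705 a CHR match. E2F matches were found for FANCC, MSH3 and UNG, which fell, and for XPC, which did not pass. These shares are descriptions without a test, and genes with more listed windows had more chances of a match.

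The SW480 arrays labelled Snail differed from the vector arrays in 10 repair genes, each by less than 2-fold. Of the 46 members 6 rose, 4 fell and 36 did not pass. These shares are not far from those of all genes, of which 8.91% were called higher and 7.34% lower. The members' median change was 0.04 on the log2 scale and that of all genes 0.01. These calls depended on single arrays: with any 1 of the 4 SW480 arrays left out, 2 or 3 members rose and 0 or 1 fell, and DDB2 was the only one called in every alternative.

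DDB2 read 8.0 and 7.80 on the vector arrays and 8.66 and 8.98 on the arrays labelled Snail, a rise of 0.92 ± 0.15 or 1.89-fold (limma adjusted p 0.0026). The groups did not overlap, which carries little weight with 2 arrays a group. Of the 46 members 34 did not overlap here, yet 36 did not pass, and the share over all genes was not counted. Of the other nucleotide excision members, ERCC5 rose from 7.30 on both vector arrays to 7.88 and 8.13, by 0.70 ± 0.16. ERCC3 rose by 0.42 ± 0.13, close to the threshold (limma adjusted p 0.049).

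XRCC4 read 6.67 and 6.95 on the vector arrays and 7.61 and 7.71 on the arrays labelled Snail, a rise of 0.85 ± 0.16 (limma adjusted p 0.0058). Its partner LIG4 rose with it, from 6.98 and 6.79 to 7.72 and 7.46, by 0.71 ± 0.16 (limma adjusted p 0.014). MGMT rose by 0.71 ± 0.17 (limma adjusted p 0.020) from the lowest level of the 4 groups. No homologous recombination, Fanconi, mismatch or base excision member rose past the threshold. As 8.91% of all genes were called higher, lists this short could hold few rises or none without any pattern by pathway.

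The 4 that fell belonged to 3 pathways. XRCC3 went from 8.03 and 7.70 to 7.15 and 7.24, by -0.67 ± 0.16 (limma adjusted p 0.019). MUTYH went from 8.14 and 8.17 to 7.51 and 7.57, by -0.61 ± 0.13 (limma adjusted p 0.0096). PMS1 fell by 0.57 ± 0.13 and XRCC1 by 0.43 ± 0.12, with close pairs of arrays in both groups.

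The S phase members that fell in spheres did not pass here: 0 of 12, with a median of 0.07. The differences were 0.64 ± 0.22 for CHEK1 and -0.32 ± 0.18 for BRCA1 on the log2 scale, neither past the threshold (limma adjusted p 0.076 and 0.28). CHEK1 read 8.53 and 8.54 on the vector arrays and 9.16 and 9.19 on the arrays labelled Snail. Its SE also holds the gap between the parental HT29 arrays, at 8.71 and 7.88, because the spread is shared over all groups. Not passing is thus no evidence that these genes were unchanged. With each line fitted alone, 9 members rose and 4 fell here. FANCF, low in the vector arrays at 7.22 and 7.10, read 7.65 and 7.82 on the arrays labelled Snail, a difference of 0.57 ± 0.18 that did not pass (limma adjusted p 0.058). Among replication genes 1 rose and 2 fell of 17, with MCM6 at 0.76 ± 0.16 and RRM2 at -0.58 ± 0.15. Among mitotic genes 1 rose of 15, CENPE by 0.74 ± 0.19, while CDK1, with a difference of -0.48 ± 0.16, did not pass. The 18S ribosomal control (5′ probe set) read 4.86 and 5.16 on the vector arrays and 6.61 and 7.15 on the arrays labelled Snail. Spike-in controls were lower on the arrays labelled Snail. BioC (3′ probe set) went from 10.09 and 9.88 to 9.65 and 9.59, BioB (middle) from 9.01 and 8.73 to 8.49 and 8.62, and CreX (3′) from 13.33 and 13.23 to 13.05 and 13.02. The part of these control differences in the results was not tested.

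Of the 69 other repair genes, 3 rose and 3 fell, against 8.91% and 7.34% of all genes. WRN, the Werner syndrome helicase, rose from 6.58 and 6.50 to 7.52 and 7.47, by 0.95 ± 0.13 (limma adjusted p 0.00093), WEE1 by 0.56 ± 0.12 and TDG by 1.02 ± 0.18. XAB2, a partner of XPA, fell from 8.07 on both arrays to 6.35 and 6.26, by 1.77 ± 0.20 (limma adjusted p 0.00042). PAXX, an accessory factor of end joining, fell by 1.26 ± 0.13 and RAD50, of the complex that first binds break ends, by 0.56 ± 0.12. The next lowest p-values of their lists did not pass: the differences were 0.39 ± 0.14 for DCLRE1A, 0.37 ± 0.16 for USP1, -0.39 ± 0.13 for POLM, 0.38 ± 0.16 for RAD17, 0.41 ± 0.13 for REV3L and -0.53 ± 0.19 for POLH. The changes of XAB2, PAXX, TDG and WRN were larger than that of any of the 46 members in this comparison.

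**Figure D4:**
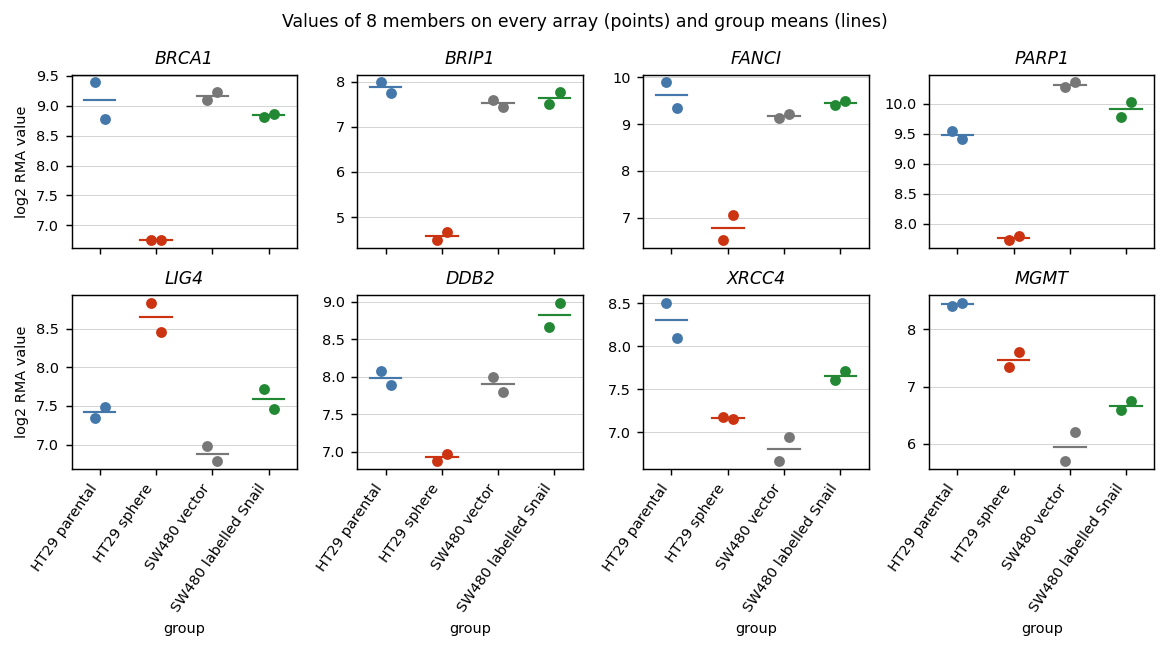
Log2 RMA values of 8 repair genes on every array (points) with group means (lines), each panel with its own scale. BRCA1, BRIP1, FANCI and PARP1 were lowest in spheres, LIG4 was highest in spheres, and DDB2, XRCC4 and MGMT were lower in spheres than in parental cells and higher in the arrays labelled Snail than in vector arrays.

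The sphere change and the Snail change were then compared gene by gene by the difference between them, a contrast that uses all 4 groups. For 33 of the 46 members the sphere change was the lower of the 2 past the threshold, and for none was it the higher, against 16.9% and 10.6% of all genes. All 7 Fanconi members, all 3 mismatch members and all 4 damage kinases were among the 33, as were 9 of 12 recombination members and 6 of 14 excision members. The largest differences were those of BRIP1, -3.40 ± 0.21 (limma adjusted p 6.1e-06), and FANCI, -3.10 ± 0.29. BRCA1 was among the 33, but its other probe set had a difference of -0.59 ± 0.29 that did not pass (limma over all probe sets, adjusted p 0.18).

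Members called in both comparisons went together or apart. DDB2, XRCC4 and MGMT fell in spheres and rose in the arrays labelled Snail, with differences of -1.97 ± 0.21, -1.98 ± 0.23 and -1.68 ± 0.25 (limma adjusted p 0.00011, 0.00016 and 0.00070). LIG4 rose in both, by 1.23 and 0.71, and the difference of 0.52 ± 0.23 did not pass (limma adjusted p 0.12). XRCC3, MUTYH, PMS1 and XRCC1 fell in both, which is 11.1% of the 36 sphere falls and 100% of the 4 Snail falls, where 36 of all 46 members fell in spheres. None of the 4 Snail falls passed in every alternative. The comparisons share no array, but their calls use 1 estimate of each gene's spread.

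The lines also differed in repair genes before any sphere culture or Snail label, in the main fit at shares near those of all genes. Between SW480 vector cells and HT29 parental cells, both in serum, 11 members were higher in SW480, 13 were lower and 22 did not pass, against 22.6% higher and 23.5% lower over all genes. With quantile normalisation the split was 18 higher and 10 lower, so 64.3% of the called members were higher in place of 45.8%. This comparison shares its arrays with both others. The ACTB control (3′ minus 5′ probe set, log2) was 0.12 to 0.22 on the SW480 arrays. It was 0.66 and 0.59 on the parental HT29 arrays and 0.72 and 0.95 on the sphere arrays, so it also differed within HT29. The GAPDH control was 0.06 to 0.15 on the SW480 arrays, 0.24 and 0.15 on the parental arrays and 0.14 and 0.21 on the sphere arrays. The part of these control differences in the results was not tested.

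MGMT differed most, 5.70 and 6.20 in SW480 vector cells against 8.41 and 8.46 in HT29 parental cells, a change of -2.49 ± 0.17 (limma adjusted p 1.2e-06) or 5.61-fold. FANCF followed, at 7.22 and 7.10 against 9.13 and 9.69, a change of -2.25 ± 0.18 (limma adjusted p 3.1e-06). XRCC4 differed by -1.49 ± 0.16 and ERCC5 by -1.38 ± 0.16 on the log2 scale. FANCL, CHEK2, PRKDC and OGG1 were lower by 1.79-fold to 2.01-fold, and the calls of PRKDC and OGG1 were lost in at least 1 alternative.

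On the other side, RAD51C was higher in SW480, at 10.59 and 10.58 against 8.80 and 7.89, a change of 2.24 ± 0.28 or 4.72-fold (limma adjusted p 8.3e-05). FANCM was higher by 1.23 ± 0.15, XRCC3 by 1.13 ± 0.16, NEIL3 by 1.06 ± 0.22, FANCG by 0.98 ± 0.13 and PARP1 by 0.84 ± 0.13. MSH6 was higher by 0.61 ± 0.12 and MSH3 lower, with a change of -0.70 ± 0.15, so the partners of mismatch recognition differed in opposite directions. Each pathway but homologous recombination, direct reversal and damage kinases held members on both sides. For BRIP1, FANCI, RAD54B and BRCA1, the 4 largest falls in spheres, the probe sets used differed between the lines by -0.44 to 0.07. None of these differences passed. Another BRCA1 probe set was higher in SW480 by 0.96 ± 0.20 (limma over all probe sets, adjusted p 0.0030), so the BRCA1 result depends on the probe set.

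Probe sets of 1 gene were called in opposite directions here for 2 members. The ERCC2 probe set used had a change of -0.49 ± 0.17 (limma adjusted p 0.040), while the other one had a change of 0.57. For ATM, too, probe sets were called in both directions. No direction is given for these 2 members between the lines.

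**Figure D5:**
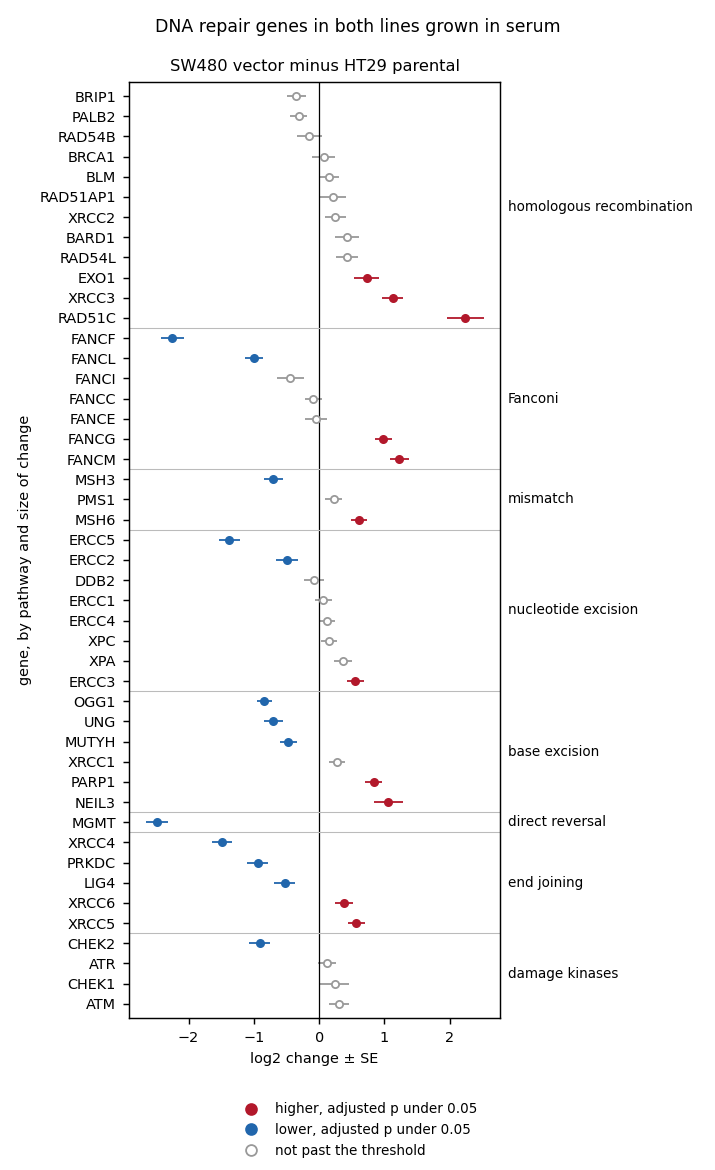
Log2 change ± SE (limma) of each measured repair gene in SW480 vector cells against HT29 parental cells, by pathway. MGMT and FANCF lie beyond -2 and RAD51C beyond 2, and filled points (adjusted p under 0.05) lie on both sides of 0.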

How the data were processed

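The deposited table holds log2 values for each probe set on each array. Per the submitters' processing notes the authors used RMA, a method that subtracts background, brings single probe values to a common distribution and combines the probes of a set. The deposited probe set values did not share 1 distribution. Array medians ran from 5.50 to 5.61 and the highest values from 14.21 to 14.40. No version is given in the sources used here. Of 54675 probe sets, 62 were controls, 41091 named 1 gene, 1801 named several and 11721 were not named in the annotation used. Limma 3.58.1 (R 4.3.3) fitted 1 mean per group to 19775 genes on all 8 arrays, with 4 residual degrees of freedom and 6.10 prior degrees of freedom, two-sided, and was tested on simulated data. Values were rescaled only in the alternatives. These were the mean of a gene's probe sets, a fit over all probe sets, omission of the dimmest 40% of genes, quantile normalisation, each line alone, array weights, a robust variance trend, a replicate block and each array left out. The members and lists were chosen with earlier results of these data known. Named members were, per comparison, the 4 largest rises and falls, the lowest adjusted p in each pathway and 10 genes named in every case. Others were named to account for the list, and from each repair, replication and mitosis list the 2 with the lowest adjusted p per comparison were taken.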

Additional observations from a re-analysis of the deposited data

Results flagged for a closer look

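A difference between the sphere change and the Snail change past the threshold (limma, adjusted over all genes) was found for 33 of the 46 members, the sphere change being the lower in each. Among the members named for it, the difference on the log2 scale was -3.40 for BRIP1, -3.10 for FANCI and -2.18 for BLM, which fell in spheres and did not pass between the SW480 groups. It was -1.98 for XRCC4, -1.97 for DDB2 and -1.68 for MGMT, which went in opposite directions in the 2 comparisons.

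A probe set shared by FSBP and RAD54B, which entered no comparison above, was lower in spheres by -0.82 on the log2 scale, with means of 5.86 in parental cells and 5.03 in spheres (limma over all probe sets, adjusted p 0.0032).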

How the results depend on the processing

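In spheres, 31 of the 36 falls and the rise of LIG4 passed in every gene-level alternative, while FANCC, FANCE, ERCC1, ERCC2 and XRCC6 lost the call in at least 1. Leaving out 1 array at a time gave 33 to 36 falls. For the arrays labelled Snail, leaving out 1 array at a time gave 2 to 9 members higher, 0 to 6 lower and 1447 to 4087 genes called in all, against 6, 4 and 3213 with every array. The low values came from leaving out an SW480 array, which leaves that group 1 array, assumed to vary like the others. The high values came from leaving out a parental HT29 array, because the SW480 tests share the spread of that pair. Between the lines, quantile normalisation gave 18 members higher, and the mean of all probe sets turned ERCC2 from -0.49 to 0.04. Of the calls between the lines, 9 of 11 higher and 8 of 13 lower passed in every alternative, and of the 33 differences 22 did.

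Same-numbered arrays did not deviate together (correlation 0.032 in HT29 and -0.034 in SW480), so no pairing by number was seen. With 2 arrays a group this cannot show whether such arrays were handled as pairs. With the replicate block, 36 members fell and 1 rose in spheres, 7 rose and 3 fell in the arrays labelled Snail, and 31 differences passed. Having 2 arrays a group and no detection measure limits the precision for dim genes.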

Other observations

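The probe sets left out because they name several genes gave values for PMS2 and RAD54B only jointly with another gene. The PMS2 and PMS2CL probe sets had sphere minus parental changes of -0.18 and -0.33 on the log2 scale, neither past the threshold (limma over all probe sets, adjusted p 0.43 and 0.12). The second FSBP and RAD54B probe set, with means of 4.09 in parental cells and 4.04 in spheres, had a change of -0.05, not past the threshold. RAD54B through its own probe set fell by 2.36.

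Of the 69 other repair genes, 13 were higher and 19 lower in SW480 vector cells than in HT29 parental cells. Over all genes these shares were 22.6% and 23.5%. FANCB, a Fanconi core gene outside the 50, read 4.81 and 4.51 in parental HT29 cells, 4.23 and 4.18 in spheres, and 6.69 and 6.76 in SW480 vector cells, a change of 2.06 ± 0.14 between the lines. POLI, a lesion bypass polymerase, went the other way, from 6.34 and 6.96 to 4.39 and 4.34, a change of -2.28 ± 0.20. Also higher in SW480 vector cells were MAD2L2 by 1.20 ± 0.13, HUS1 by 1.19 ± 0.15, PAXX by 0.93 ± 0.13 and RMI1 by 0.45 ± 0.13. TDG was lower, with a change of -1.67 ± 0.18, as were MPG with -1.35 ± 0.13, WEE1 with -1.27 ± 0.12, TP53BP1 with -0.90 ± 0.13, DCLRE1A with -0.68 ± 0.14 and MRE11 with -0.66 ± 0.14. Of the replication and mitotic genes, RRM2, which supplies deoxynucleotides for repair and replication, was higher by 2.20 ± 0.15, TYMS by 1.43 ± 0.17, AURKB by 1.27 ± 0.17 and BUB1 by 0.88 ± 0.16.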
